A study of Mus musculus with 35 samples.

Results

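The genes described here are 7 host genes of small nucleolar RNAs: *Gas5*, *Snhg1*, *Snhg8*, *Snhg11*, *Snhg12*, *Snhg14* and *Snhg20*. They were taken by symbol from the 55356 genes of the count table. The rule uses no measured value, but the 7 symbols were chosen with earlier results of these data known. The table holds reads of total RNA from adult C57BL/6J mice, sequenced after removal of ribosomal RNA. The tissues were ovary, testis and, from females and males alike, brain, cerebellum, heart and colon. There were 29 RNA-seq libraries in 10 groups, each a tissue of one sex. A group had 3 libraries, except that male heart had 2. Taken over both sexes this gave 6 libraries of brain, 6 of cerebellum, 5 of heart, 6 of colon, 3 of ovary and 3 of testis. All animals were of the same strain, were labelled only as adult and had no treatment named in the labels. Nothing in the labels says whether libraries with the same number came from the same animal or whether the libraries of a group came from separate animals, so P-values measure the spread between these libraries. Full-length transcripts read on PacBio flow cells (Iso-seq) entered through the gene models on which the reads were counted.

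Small nucleolar RNAs guide the chemical modification of ribosomal RNA and other RNAs. The box C/D class guides ribose methylation and carries short C and D motifs near its ends, and the box H/ACA class guides pseudouridylation and ends shortly after an ACA. In mammals most of them are cut out of introns of host genes. Some hosts encode proteins of the ribosome or of translation, while others, among them *Gas5* and the genes with an *Snhg* symbol, give spliced RNAs that are mostly thought not to encode a protein, and the spliced *Gas5* RNA is a known substrate of nonsense-mediated decay. *Snhg14* is a very long host in an imprinted region and carries tandem arrays of box C/D RNAs. In neurons its transcript runs through *Ube3a* on the opposite strand.

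The libraries held between 11742417 and 36194255 counted reads, with a median of 24403774, and no replicates were identical. Levels are given as FPKM, a gene's reads divided by the kilobases that its exons cover together and by the library's total in units of 1000000 counted reads. The tests used TMM factors, which rescale each library by the bulk of its genes. These factors were 0.604 to 0.711 in 4 of the heart libraries, 1.12 in female heart replicate 3, 1.30 to 1.45 in ovary and 0.856 to 1.22 in the other libraries, so an order by FPKM and a tested difference can part where heart or ovary is compared. Marker genes were high in the labelled tissue: the 6 neuron markers summed to 2995 to 4139 CPM (reads per 1000000 counted) in brain and to 3.07 to 4.62 in heart, and the 4 cardiomyocyte markers summed to 19057 to 47916 CPM in heart. In the ovary list, *Foxl2*, a granulosa cell factor, was at 114 to 175 CPM in ovary and at 0 to 0.0485 CPM in heart, whereas *Gdf9*, an oocyte factor, was at 54.9 to 96.4 CPM in ovary and at 299.6 to 570 CPM in heart. Female heart replicate 3 stood apart from the other heart libraries. Its 2 adipocyte markers summed to 1081 CPM against 0.0822 to 4.07 CPM in the other 4, its immune markers to 129 CPM against 15.9 to 23.9 CPM, and its cardiomyocyte markers to 19057 CPM against at least 37397 CPM. In whole-tissue RNA, fewer cells of a type and less RNA per cell cannot be told apart.

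Reads of 5 of the 7 genes were counted on the ENSEMBL gene model and those of *Gas5* and *Snhg11* on Iso-seq loci, all on mouse genome GRCm38.p6. *Gas5* lies on the plus strand at chr1:161035166-161038537. Its locus has 3 transcript models, from 1 of 12 exons and 499 bases to an unspliced one of 3370 bases. *Snhg1* is on the plus strand at chr19:8723475-8726443 with 18 transcripts, *Snhg12* on the plus strand at chr4:132308623-132311024 with 10, and *Snhg8* on the minus strand at chr3:123507552-123508404 with 3. In these 4 genes, in the order named, the union of exons equals the span, at 3372, 2969, 2402 and 853 bases, so their counts include reads from introns. *Snhg20* is on the plus strand at chr11:117076008-117078955, and its exons cover 2795 of 2948 bases. *Snhg11*, on the plus strand at chr2:158375701-158381577, was counted on 1 spliced model of 5 exons and 1233 bases, and GENCODE gives it the type protein_coding. *Snhg14*, on the minus strand at chr7:59307924-59975759, spans 667836 bases with exons of 26093 bases in all over 15 transcripts.

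Within the spans of these genes, on the same strand, the annotation places 235 genes of small nucleolar RNAs. *Snhg14* holds 208 of them, *Gas5* 10, *Snhg1* 8, *Snhg12* 5, *Snhg11* 2, and *Snhg8* and *Snhg20* 1 each. Entries that overlap count separately here and below, as do the 2 of *Snord80* in *Gas5* and the 2 of *Snora16a* in *Snhg12*. The box C letters TGATGA were searched in the first 20 bases, the box D letters CTGA in the last 12 and the letters ACA in the last 6, on the strand of the RNA. Both box C and box D letters were present in 202 of the 235 (86.0%), against 301 of the 1558 small nucleolar RNA genes of the whole annotation (19.3%), and ACA in 9 of 235 against 725 of 1558 (46.5%). The 1558 genes include these 235, and 189 of the 202 lie in *Snhg14*, where many RNAs share a sequence. Sequences are shown for the 2 RNAs with most reads in *Snhg14*, both RNAs of *Snhg11*, and 1 RNA each from *Gas5* and *Snhg8*, since these contrast the box C/D hosts with the H/ACA hosts. The sequences are those of the GENCODE transcripts, and capitals mark box C, box D or ACA letters where the search found them.
Snord116l12 (in Snhg14, chr7:59904755-59904848, minus strand): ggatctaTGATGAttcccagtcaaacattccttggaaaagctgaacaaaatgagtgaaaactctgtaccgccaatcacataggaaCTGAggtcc
Gm24966 (in Snhg14, chr7:59344073-59344151, minus strand): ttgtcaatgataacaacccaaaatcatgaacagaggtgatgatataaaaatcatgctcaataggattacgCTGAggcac
Snord78 (in Gas5, chr1:161036984-161037049, plus strand): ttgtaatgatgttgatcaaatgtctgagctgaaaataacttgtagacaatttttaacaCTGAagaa
Gm25187 (in Snhg11, chr2:158378222-158378354, plus strand): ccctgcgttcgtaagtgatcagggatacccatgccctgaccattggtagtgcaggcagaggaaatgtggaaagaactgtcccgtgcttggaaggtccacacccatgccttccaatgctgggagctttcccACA
Gm25129 (in Snhg11, chr2:158379534-158379666, plus strand): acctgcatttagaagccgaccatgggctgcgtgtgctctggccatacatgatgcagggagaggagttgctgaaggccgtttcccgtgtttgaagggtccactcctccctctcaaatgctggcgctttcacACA
Snora24 (in Snhg8, chr3:123507937-123508066, minus strand): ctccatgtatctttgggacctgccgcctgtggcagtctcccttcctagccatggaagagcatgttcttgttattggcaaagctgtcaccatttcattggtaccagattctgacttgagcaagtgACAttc
Of the RNAs in *Snhg14*, 189 of 208 carried both box letters, as did 7 of 10 in *Gas5* and 5 of 8 in *Snhg1*. Both RNAs of *Snhg11*, the 1 of *Snhg8*, the 1 of *Snhg20* and 3 of 5 in *Snhg12* ended in ACA letters instead. The RNAs of *Snhg11* are each 133 bases long and have the same base at 56 of these positions (42.1%).

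Most *Snhg14* RNAs fall in 2 length classes, with 130 of exactly 79 bases between chr7:59344073 and 59619095 and 68 of exactly 94 bases between chr7:59673461 and 59904848. The 208 RNAs have 85 distinct sequences, the most frequent of which occurs 33 times.

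Promoters of several noncoding hosts belong to the terminal oligopyrimidine (TOP) class, in which transcription starts in a run of pyrimidines, as in ribosomal protein genes. RefSeq start sites on GRCm38.p6 were matched for all 7 genes, and 60 bases around each start (40 before it and 20 from it on) were read. TATA letters were searched on the gene's strand between 40 and 15 bases before the start, and a run of at least 6 bases of C or T between 6 bases before the start and 10 after it. The windows of *Gas5*, *Snhg1*, *Snhg8* and *Snhg12* held both, and those of *Snhg11* and *Snhg20* neither. These 6 windows are shown because they differ in these letters between hosts. Capitals mark TATA and the pyrimidine run.
Gas5 (chr1:161035126-161035185, plus strand): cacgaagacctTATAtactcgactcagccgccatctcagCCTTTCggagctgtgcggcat
Snhg1 (chr19:8723447-8723506, plus strand): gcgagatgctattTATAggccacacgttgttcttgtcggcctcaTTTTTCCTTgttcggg
Snhg8 (chr3:123508317-123508376, minus strand): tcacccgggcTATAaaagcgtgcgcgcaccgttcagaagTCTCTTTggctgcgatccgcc
Snhg12 (chr4:132308638-132308697, plus strand): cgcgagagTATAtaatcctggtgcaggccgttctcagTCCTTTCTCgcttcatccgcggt
Snhg11 (chr2:158375673-158375732, plus strand): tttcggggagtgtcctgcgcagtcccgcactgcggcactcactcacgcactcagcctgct
Snhg20 (chr11:117076743-117076802, plus strand): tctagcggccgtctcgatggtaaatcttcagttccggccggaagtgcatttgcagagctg
Over all 32851 RefSeq start windows, 5.91% held the TATA letters, 25.4% the run and 1.64% both. Among 76 windows of cytosolic ribosomal protein genes 47.4% held the run and 9.21% both, and among 12 windows of other genes with an *Snhg* symbol 6 held the run and 1 both. The Iso-seq model of *Gas5* begins at the RefSeq start shown, and the window of a second RefSeq start, 565 bases upstream, held neither. For *Snhg14* the RefSeq start lies 474418 bases upstream of the counted gene, and no window is shown.

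Across the 6 tissues the 7 genes fell into 2 patterns by FPKM. *Gas5*, *Snhg1*, *Snhg8*, *Snhg12* and *Snhg20* had their highest mean in ovary, and *Snhg11* and *Snhg14* were high in brain and cerebellum and low in the other tissues. Tau, an index of tissue specificity that runs from 0 for equal levels to 1 for a single tissue, was lowest for *Snhg8* (0.576) and highest for *Snhg11* (0.809). The order of the genes within a tissue rests on the length used: per kilobase of union exons *Snhg11* was highest in brain (26.7 FPKM, against 17.0 for *Gas5*), but per kilobase of the shortest transcript *Gas5* stood at 115 FPKM there and *Snhg14* at 945, so levels are compared below between tissues and not between genes.

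**Figure D1:**
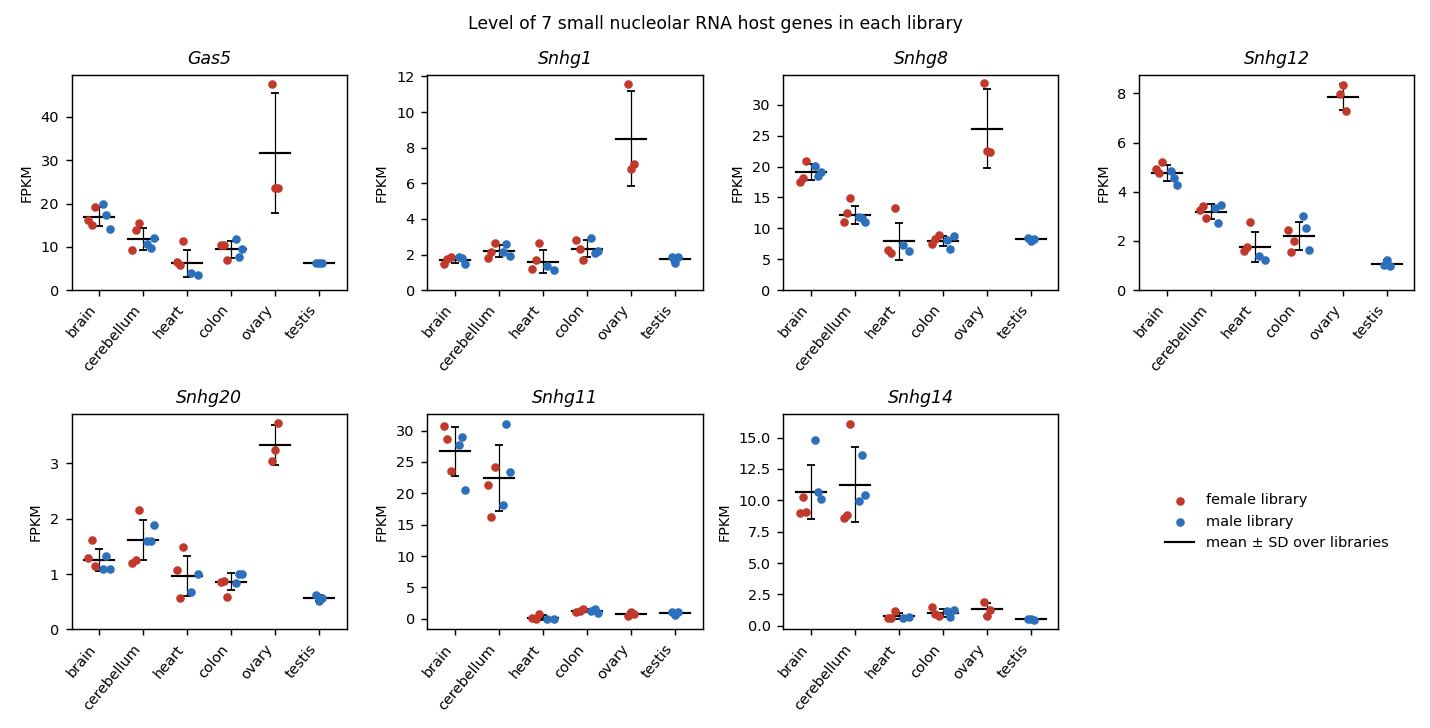
Level of each host gene in FPKM (y axis, linear, one scale per gene) in the 29 libraries by tissue (x axis). Points are libraries, red for female and blue for male, and bars are the mean and SD over the libraries of a tissue; the 3 ovary libraries lie above the other tissues in the first 5 panels, and brain and cerebellum lie above the rest for *Snhg11* and *Snhg14*.

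*Gas5*, a growth-arrest-specific transcript and host of box C/D RNAs, was at 47.6, 23.7 and 23.5 FPKM in the 3 ovary libraries and at 6.17, 6.33 and 6.21 FPKM in those of testis. The lowest, median and highest brain libraries had 14.2, 16.8 and 19.9 FPKM, those of cerebellum 9.23, 11.3 and 15.5 FPKM and those of colon 6.87, 9.85 and 11.8 FPKM. In heart the females had 6.50, 5.76 and 11.3 FPKM and the males 3.85 and 3.48 FPKM. Every ovary library lay above every other library, and ovary replicate 1 stood above its fellows. Means were 31.6 ± 13.8 FPKM (SD, n = 3) in ovary, 17.0 ± 2.24 (n = 6) in brain, 11.8 ± 2.45 (n = 6) in cerebellum, 9.40 ± 1.88 (n = 6) in colon, 6.24 ± 0.0834 (n = 3) in testis and 6.18 ± 3.14 (n = 5) in heart. Down this order ovary exceeded brain (log2 difference 0.44, SE 0.18, adjusted P = 0.0444) and brain exceeded cerebellum (0.66, SE 0.15, adjusted P = 0.00167). The call of ovary against brain rested on ovary replicate 1, without which brain minus ovary was -0.097 (adjusted P = 0.717). It also ended without female brain replicate 1 or 2, male brain replicate 2 or 3, male cerebellum replicate 1 or either male heart library (adjusted P = 0.0505 to 0.0960). The same call ended with a replicate block and with the sexes pooled (adjusted P = 0.0749 and 0.0813). Cerebellum and colon, colon and testis, and testis and heart were not called (adjusted P = 0.0601, 0.255 and 0.979), but cerebellum was called higher than colon without ovary replicate 1, female cerebellum replicate 1, female colon replicate 2 or male colon replicate 1 (adjusted P = 0.0205 to 0.0382).

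*Snhg1*, which hosts box C/D RNAs and starts 112 bases from the divergent gene *Slc3a2*, was at 11.6, 6.82 and 7.10 FPKM in ovary and at 1.83, 1.55 and 1.88 FPKM in testis. Its lowest, median and highest libraries had 1.46, 1.77 and 1.86 FPKM in brain, 1.83, 2.14 and 2.64 FPKM in cerebellum and 1.71, 2.23 and 2.92 FPKM in colon. Heart libraries had 1.18, 1.68 and 2.67 FPKM in females and 1.36 and 1.13 FPKM in males. Ovary stood apart with no overlap, and the other 5 tissues overlapped. The ovary mean of 8.50 ± 2.67 FPKM (SD, n = 3) was 3.64 times the next mean, that of colon (2.33 ± 0.457, n = 6), with a log2 difference of 1.56 (SE 0.18, adjusted P = 4.9e-08). None of the later neighbours in the order, which ran colon, cerebellum, testis, brain and heart, was called (adjusted P = 0.740, 0.976, 0.227 and 0.240). Brain was called lower than testis with RLE size factors, a stricter filter or DESeq2 or without testis replicate 2 (-0.50 to -0.42, adjusted P = 0.0160 to 0.0420). It was called lower than heart with a stricter filter or without testis replicate 2 (-0.48 and -0.44, adjusted P = 0.0130 and 0.0232). In the main fit *Snhg1* differed in 5 of the 15 pairs of tissues, each of them a pair with ovary. Brain was also called lower than colon with RLE size factors, DESeq2, total counts, a stricter filter or no filter. The same held without female colon replicate 3 or testis replicate 2 (adjusted P = 0.00053 to 0.0399 over these runs). Heart was called lower than cerebellum and than colon with total counts as library sizes (adjusted P = 0.0243 and 0.0126).

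*Snhg8*, a short host of the H/ACA RNA *Snora24*, had the lowest tau. Ovary libraries were at 33.5, 22.5 and 22.3 FPKM and testis libraries at 8.36, 7.96 and 8.35 FPKM. The lowest, median and highest were 17.5, 18.8 and 21 FPKM in brain, 11.0, 11.8 and 15.0 FPKM in cerebellum and 6.73, 8.18 and 8.91 FPKM in colon. In heart the values were 6.56, 6.08 and 13.3 FPKM in females and 7.24 and 6.31 FPKM in males. Brain lay above cerebellum in every library, and heart, colon and testis overlapped. The mean of ovary, 26.1 ± 6.38 FPKM (SD, n = 3), was 1.37 times that of brain, 19.1 ± 1.29 FPKM (n = 6), but with TMM factors the log2 difference was 0.0010 (SE 0.14, adjusted P = 1.00). Ovary was called higher with total counts as library sizes (brain minus ovary -0.45, adjusted P = 0.0460). Brain exceeded cerebellum (12.2 ± 1.48 FPKM) by 0.79 on the log2 scale (SE 0.12, adjusted P = 1.3e-05), and cerebellum did not differ from testis (adjusted P = 0.180). Cerebellum was called higher than testis with total counts (0.56, adjusted P = 0.0154). Testis, colon and heart had means of 8.22, 8.02 and 7.89 FPKM, and with TMM factors testis was higher than colon (0.38, adjusted P = 0.0240) and heart was higher than colon (adjusted P = 0.00365), the reverse of their order in FPKM. Both calls ended with total counts as library sizes (adjusted P = 0.884 and 0.854), and that of testis also without any testis replicate, female colon replicate 1 or male colon replicate 2 (adjusted P = 0.0529 to 0.0625). The call of testis ended as well with a stricter filter and with no filter on low counts (adjusted P = 0.0698 and 0.516).

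*Snhg12*, which holds 3 annotated RNAs with ACA letters and 1 with box C/D letters, was at 7.99, 8.33 and 7.29 FPKM in ovary and at 1.02, 1.23 and 0.974 FPKM in testis. Lowest, median and highest values were 4.28, 4.79 and 5.21 FPKM in brain, 2.75, 3.29 and 3.48 FPKM in cerebellum and 1.56, 2.23 and 3.0 FPKM in colon. Heart libraries had 1.61, 1.76 and 2.76 FPKM in females and 1.40 and 1.21 FPKM in males. Ovary, brain and cerebellum did not overlap with each other. Ovary and brain did not differ after TMM scaling (means 7.87 ± 0.527 and 4.76 ± 0.318 FPKM, log2 difference 0.29, adjusted P = 0.132), but ovary was called higher with total counts, a stricter filter or DESeq2 or without testis replicate 2 (adjusted P = 0.00163 to 0.0236). Brain exceeded cerebellum (0.71, SE 0.14, adjusted P = 0.00025), cerebellum colon (0.56, SE 0.14, adjusted P = 0.00093) and heart testis (0.81, SE 0.18, adjusted P = 0.00038), while colon and heart did not differ (adjusted P = 0.484). In the main fit *Snhg12* differed in 13 of 15 pairs, the most of the 7 genes. Among these, the call of cerebellum above heart ended with RLE size factors, a stricter filter or no filter (adjusted P = 0.0529 to 0.222).

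*Snhg20*, the host of 1 annotated RNA with ACA letters, was at 3.04, 3.23 and 3.73 FPKM in ovary and at 0.616, 0.521 and 0.570 FPKM in testis. Brain ran from 1.09 through a median of 1.22 to 1.61 FPKM, cerebellum from 1.2 through 1.6 to 2.15 FPKM, and colon from 0.583 through 0.866 to 1.01 FPKM. Heart had 1.07, 0.571 and 1.49 FPKM in females and 0.676 and 1.01 FPKM in males. Only ovary was free of overlap with every other tissue. The ovary mean of 3.33 ± 0.360 FPKM (SD, n = 3) exceeded that of cerebellum, 1.61 ± 0.364 FPKM (n = 6), with a log2 difference of 0.76 (SE 0.24, adjusted P = 0.00855), which was not called without ovary replicate 3 (adjusted P = 0.0569). Cerebellum and brain, brain and heart, and colon and testis did not differ (adjusted P = 0.498, 1.00 and 0.406), and heart was higher than colon (0.69, SE 0.22, adjusted P = 0.0107).

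*Snhg11*, a transcript known from neurons, lay between 20.5 and 30.8 FPKM in brain (median 28.1) and between 16.2 and 31.1 FPKM in cerebellum (median 22.4). Colon libraries had 0.912 to 1.6 FPKM (median 1.24), ovary 0.405, 1.01 and 0.722 FPKM, and testis 1.05, 0.525 and 1.08 FPKM. Female heart had 0.133, 0.0324 and 0.777 FPKM, from 4, 1 and 23 reads. In male heart no read was counted in 40212405 reads over both libraries, which allows up to 0.0746 CPM for a count of 3. Brain and cerebellum (26.7 ± 3.86 and 22.4 ± 5.26 FPKM, SD, n = 6 each) did not differ (adjusted P = 0.249), and cerebellum was 17.5 times the colon mean of 1.28 ± 0.273 FPKM (log2 difference 4.10, SE 0.29, adjusted P = 3.1e-12). Colon, testis and ovary did not differ from their neighbours in this order (adjusted P = 0.622 and 0.0661). Ovary and heart differed (fitted difference 3.8, adjusted P = 0.00165), a size that depends on the prior count since male heart was at 0, and the call ended with the sexes pooled (adjusted P = 0.0790). By summed reads, male brain was at least 432-fold, male cerebellum at least 406-fold and male colon at least 21-fold higher than male heart, with the floor of 3 counts taken over the 2 heart libraries. In females, brain was 89.3 times heart, and 336 times without female heart replicate 3, which held 23 of the 28 reads.

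*Snhg14*, host of the tandem arrays, ran from 8.98 through a median of 10.2 to 14.8 FPKM in brain and from 8.56 through 10.2 to 16.1 FPKM in cerebellum. Colon ran from 0.709 through 1.04 to 1.5 FPKM, and heart libraries had 0.616, 0.625 and 1.19 FPKM in females and 0.649 and 0.675 FPKM in males. Ovary had 1.88, 0.817 and 1.24 FPKM and testis 0.579, 0.568 and 0.495 FPKM. All 12 libraries of brain and cerebellum lay above the other 17. Cerebellum (11.2 ± 2.99 FPKM, SD, n = 6) and brain (10.7 ± 2.14 FPKM, n = 6) did not differ (adjusted P = 0.955), and with TMM factors their order turned round. Brain was 8.10 times the ovary mean of 1.32 ± 0.537 FPKM (log2 difference 3.46, SE 0.26, adjusted P = 1.8e-11). Ovary, colon (1.05 FPKM) and heart (0.752 FPKM) did not differ from their neighbours (adjusted P = 1.00 for both), and heart exceeded testis (0.62, SE 0.24, adjusted P = 0.0233). That call ended without male heart replicate 2 or testis replicate 3 and with RLE size factors, DESeq2 or total counts (adjusted P = 0.0539 to 0.203).

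Over the 15 pairs of tissues, 74 gene-by-pair differences passed, with called meaning an adjusted P below 0.05. The number of members called can be read against the share of all 29911 tested genes called in the same pair. Of the 7 genes, 5 differed between brain and heart (58.8% of all genes), 6 between brain and colon (68.3%), 5 between brain and ovary (56.8%) and 6 between brain and testis (71.5%). For cerebellum the counts were 4 against heart (57.4%), 5 against colon (66.1%), 7 against ovary (53.5%) and 5 against testis (71%). Heart differed from ovary in 6 (44%) and from testis in 4 (67.5%), and colon from ovary in 6 (48%) and from testis in 3 (71.9%). Against ovary the 5 genes with their peak there were lower in cerebellum, heart and colon, while *Snhg14* was higher in cerebellum and showed differences of 0.017 in heart and -0.014 in colon on the log2 scale, which were not called.

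The first comparison asked how the host genes differ between neural tissues and the other somatic tissues. *Snhg11* and *Snhg14* were far higher in brain and cerebellum than in heart and colon, and *Gas5*, *Snhg8*, *Snhg12* and *Snhg20* were modestly higher on average over the 2 neural tissues. *Snhg20* was called higher than colon but not than heart in brain and in cerebellum, and *Snhg8* did not pass in cerebellum against heart (0.14, adjusted P = 0.397) nor *Gas5* in cerebellum against colon (0.33, adjusted P = 0.0601). *Snhg20* and *Snhg8* were called higher in cerebellum than in heart with total counts as library sizes (adjusted P = 0.0043 and 0.00176), and with RLE size factors or a stricter filter *Snhg20* was not called in brain against colon (adjusted P = 0.0559 and 0.0627). In cerebellum against heart *Snhg12* was called higher (0.42, adjusted P = 0.0172). This call ended with RLE size factors, a stricter filter or no filter, and without male heart replicate 2 or testis replicate 2 (adjusted P = 0.0529 to 0.222). The call of *Gas5* in the same pair ended with a stricter filter (adjusted P = 0.0522). The log2 differences were 3.44 for *Snhg14* (SE 0.15, adjusted P = 6.6e-17), 0.85 for *Snhg12* (SE 0.10, adjusted P = 4.9e-08), 0.79 for *Gas5* (SE 0.11, adjusted P = 8.1e-07), 0.76 for *Snhg8* (SE 0.09, adjusted P = 2.6e-08) and 0.46 for *Snhg20* (SE 0.15, adjusted P = 0.00899). The fitted value of *Snhg11* was 6.76 (adjusted P = 2.6e-16) and depends on the prior count, since male heart was at 0. *Snhg1* differed by -0.15 (SE 0.11, adjusted P = 0.257). Thus 6 of 7 were called, all of them higher, while 64.5% of all genes were called, 38.2% higher and 26.3% lower, around a median log2 difference of 0.11. With RLE size factors, a stricter filter on low counts, DESeq2 or without testis replicate 2, *Snhg20* lost its call (0.23 to 0.30) and *Snhg1* was called lower (-0.38 to -0.32). Without female heart replicate 3 the same 6 were called.

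**Figure D2:**
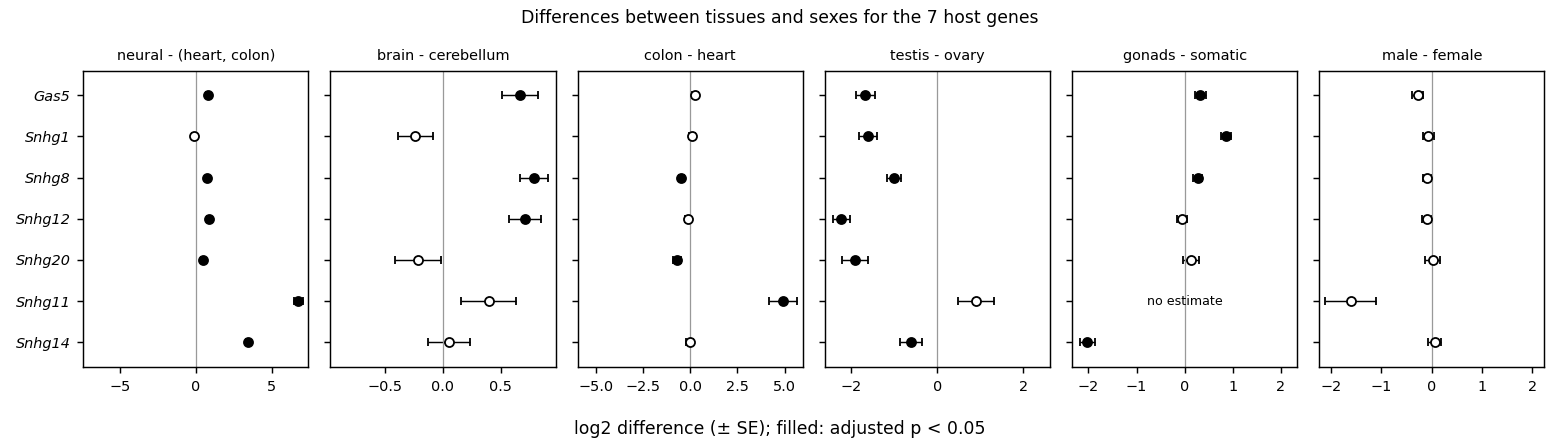
Log2 difference of each host gene (rows) in 6 comparisons (panels, each with its own linear x scale); points are estimates of the edgeR fit, bars their SE, and filled points have an adjusted P under 0.05. All filled points lie right of 0 for neural tissues and left of 0 for testis minus ovary; no estimate is drawn for *Snhg11* in gonads minus somatic tissues.

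Brain and cerebellum were compared next. *Snhg8*, *Snhg12* and *Gas5* were higher in brain, by 0.79 (SE 0.12), 0.71 (SE 0.14) and 0.66 (SE 0.15) on the log2 scale (adjusted P = 1.3e-05, 0.00025 and 0.00167). *Snhg11* (0.39, adjusted P = 0.249), *Snhg14* (0.051, adjusted P = 0.955), *Snhg20* (-0.22, adjusted P = 0.498) and *Snhg1* (-0.24, adjusted P = 0.277) were not called. The 3 of 7 compare with 26.1% of all genes, 15.3% higher and 10.8% lower in brain. Higher genes were 58.5% of all calls, and 44.7% with total counts as library sizes, where the same count of 3 members was called.

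Colon and heart differed in *Snhg11*, which was higher in colon in each of 6 libraries than in each of 5 heart libraries, with a fitted difference of 4.91 (adjusted P = 3.0e-06) that depends on the prior count. By summed reads, female colon was 4.33 times female heart, and the male bound was given above. Female heart was at 0.382 CPM with replicate 3 and at 0.101 CPM without it, so the female ratio would be larger without that library. The 6 neuron markers summed to 28.2 to 44.1 CPM in colon with 0 of 6 at 0, and to 3.07 to 4.62 CPM in heart with 1 to 3 of 6 at 0. Their part in the difference was not tested. In female heart replicate 3, whose *Snhg11* level was 18.7 times the mean of the other heart libraries by total counts and 10.5 times with TMM factors, the neuron markers summed to 4.62 CPM. Astrocyte markers summed to 114 CPM there, nearly all of it *Slc1a3*, against 7.23 to 10.2 CPM in the other 4, and oligodendrocyte markers to 59.8 CPM, mostly *Mbp*, against 18.2 to 24.4 CPM. None of the 3 genes of either list was at 0 in any heart library, and the part of these markers in the level was not tested. *Snhg20* (-0.69, SE 0.22, adjusted P = 0.0107) and *Snhg8* (-0.47, SE 0.13, adjusted P = 0.00365) were called lower in colon with TMM factors, but with total counts as library sizes, an alternative added after the data were seen, neither was called (-0.14 and 0.067), and *Gas5*, *Snhg1* and *Snhg12* were called higher in colon (0.81, 0.62 and 0.42; adjusted P = 0.00167, 0.0126 and 0.0439). With TMM factors these 3 differed by 0.26, 0.081 and -0.14 and *Snhg14* by -0.030, and none was called. Of all genes 53.9% were called, 28.9% higher and 25% lower in colon; higher genes made up 53.6% of the calls, and 72.5% with total counts, which moved the median of all genes from 0.092 to 0.62. Leaving out male heart replicate 2 also ended the call of *Snhg20* (adjusted P = 0.0986).

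Testis and ovary are also a male and a female organ, so tissue and sex cannot be told apart here. All 5 genes with their peak in ovary were lower in testis. *Snhg12* differed by -2.23 (SE 0.20, adjusted P = 5.1e-10), *Snhg20* by -1.92 (SE 0.29, adjusted P = 3.5e-06), *Gas5* by -1.67 (SE 0.22, adjusted P = 3.6e-07), *Snhg1* by -1.62 (SE 0.21, adjusted P = 3.8e-07) and *Snhg8* by -1.01 (SE 0.17, adjusted P = 1.2e-05). *Snhg14* was also lower, by -0.60 (SE 0.26, adjusted P = 0.0429), and *Snhg11* differed by 0.90 (SE 0.42, adjusted P = 0.0661). The 6 of 7 compare with 64.3% of all genes, of which 26.5% were lower and 37.8% higher in testis, around a median difference of 0.15. Higher genes were 58.8% of all calls, and 44.1% with total counts as library sizes. The call of *Snhg14* ended with RLE size factors, with DESeq2 and without ovary replicate 1, ovary replicate 3 or any testis replicate, where the adjusted P ran from 0.0709 to 0.295. *Snhg11* was called higher in testis with RLE size factors, with DESeq2 and without female heart replicate 2 or 3, ovary replicate 2 or testis replicate 2, with adjusted P from 0.00741 to 0.0348.

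Both gonads were compared with the 4 somatic tissues. *Snhg1* was higher by 0.86 (SE 0.11, adjusted P = 2.9e-07), *Gas5* by 0.33 (SE 0.12, adjusted P = 0.0219) and *Snhg8* by 0.27 (SE 0.09, adjusted P = 0.0159), and *Snhg14* was lower by -2.02 (SE 0.16, adjusted P = 5.9e-11). *Snhg12* (-0.050, adjusted P = 0.839) and *Snhg20* (0.14, adjusted P = 0.556) were not called. These means join an ovary in which the 5 genes were high with a testis in which they were not. For *Snhg11* the fit gave no usable estimate, since male heart was at 0, and with the sexes pooled it was lower by -2.24 (adjusted P = 2.0e-07). Of all genes 54.6% were called, 31.6% higher and 23% lower, around a median of 0.18. Without ovary replicate 1 the calls of *Gas5* and *Snhg8* ended (0.16 and 0.20, adjusted P = 0.273 and 0.0988).

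Between males and females, averaged over brain, cerebellum, heart and colon, 0 of 7 genes were called by edgeR and 0 by DESeq2, and 0.104% of all genes were. At an unadjusted P under 0.05 edgeR's quasi-likelihood test gave 2, *Gas5* (-0.28, SE 0.11, adjusted P = 0.414) and *Snhg11* (-1.61, adjusted P = 0.298), both with lower values in males. Within single tissues both were farthest from 0 in heart, where *Gas5* differed by -0.87 (SE 0.25, adjusted P = 0.217) and *Snhg11* was at 0 in males. In brain, cerebellum and colon the 7 genes differed between the sexes by between -0.25 and 0.39. No member was called within brain, cerebellum, heart or colon alone, where 0.0368%, 0.0301%, 0.0635% and 0.324% of all genes were. The interaction of sex with tissue called 0.0167% of all genes and no member, with adjusted P of at least 0.645. At an unadjusted P under 0.05 the interaction gave *Snhg11* (adjusted P = 0.645) and *Gas5* (adjusted P = 0.731).

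Reads counted on the small nucleolar RNAs themselves were looked at beside those of the hosts. The libraries were made for RNA-seq of total RNA and not for small RNAs. All 27 RNAs inside an exon model of *Gas5*, *Snhg1*, *Snhg8*, *Snhg12*, *Snhg14* or *Snhg20* were at 0 in 29 libraries. Over the whole annotation, 17 of 103 small nucleolar RNA genes inside an exon of another gene on the same strand had a read (16.5%), against 834 of 1455 outside such exons (57.3%). How reads that fall on more than 1 gene were counted is not given in the sources used here, so a count of 0 for these 27 says nothing about whether the RNA was present.

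Outside exon models, the RNAs of *Snhg11* and *Snhg14* were read almost only in neural tissue. The 2 H/ACA RNAs of *Snhg11* had 274 reads in brain, 347 in cerebellum, 0 in heart, 1 in colon, 2 in ovary and 2 in testis. Of 206 RNAs of *Snhg14* outside exon models, 144 had a read, and their summed reads were 1304 in brain, 1964 in cerebellum, 3 in heart, 9 in colon, 0 in ovary and 8 in testis. Brain libraries had a median of 198 such reads and cerebellum libraries a median of 324. *Snord116l12*, the most read of them, had 16 to 25 reads in each brain library, 12 to 33 in each cerebellum library and at most 1 in any other. *Gm25187* of *Snhg11* had 12 to 32 reads a library in brain and 25 to 42 in cerebellum, and *Gm25129* 4 to 35 and 8 to 47. After the filter on low counts 10 of the 235 remained. They passed it through their neural reads and so had to differ, and their counts are given as a description without a test.

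**Figure D3:**
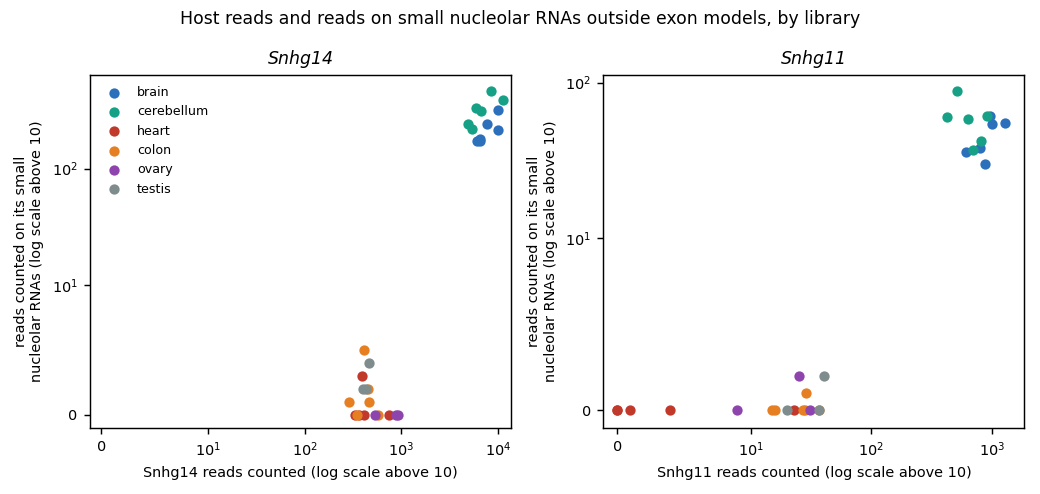
Reads counted on small nucleolar RNAs outside exon models (y axis) against reads counted on their host (x axis), both linear from 0 to 10 and logarithmic above, for *Snhg14* (206 RNAs) and *Snhg11* (2 RNAs). Each point is a library, coloured by tissue; brain and cerebellum form a group at the top right, and the other tissues lie at 5 reads or fewer on the y axis.

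The reads of the small RNAs were also set against those of the host. Per 1000 reads of *Snhg14* there were 21.7 to 31.8 reads of its small RNAs in brain (median 28.5) and 34.3 to 56.6 in cerebellum (median 47.9), without overlap between 6 and 6 libraries. For *Snhg11* the values were 34.2 to 62.4 in brain (median 50.8) and 51.9 to 174 in cerebellum (median 79.2), with overlap. Outside neural tissue the summed ratio for *Snhg14* was 1.34 in heart, 3.57 in colon, 0 in ovary and 6.23 in testis. For *Snhg11* it was 0 in heart, 6.58 in colon, 30.8 in ovary and 20.4 in testis, the last 2 from 2 reads of the small RNAs each. These ratios were computed after the reads had been seen and are a description without a test. Small structured RNAs as a class took 5.06% to 8.10% of reads in brain and 3.86% to 10.4% in cerebellum.

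Only uniquely mapped reads were kept, and many RNAs of *Snhg14* share their sequence. Of its RNAs outside exons, 61 have a sequence that no other annotated RNA of the gene shares, and all 61 had a read, with 29.8 reads each on average. The other 145 share their sequence with at least 1 more and had 10.1 reads each on average, and 83 of them (57.2%) had a read. The part of unique mapping in this difference was not tested. The 136 RNAs shorter than 85 bases, the class of *Gm24966*, held 2544 reads, and the 72 longer ones, the class of *Snord116l12*, held 744.

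The position of the RNA in its intron differed between hosts. Box C/D RNAs that are made during splicing usually end a short way before the next exon. In *Gas5* the median distance from the RNA's end to the next exon was 73.5 bases over 10 RNAs, in *Snhg1* 75 over 8, in *Snhg12* 81 over 5, and *Snora24* in *Snhg8* ended 74 bases before it. The shortest distance was 65 bases, in both *Gas5* and *Snhg1*. The 2 RNAs of *Snhg11* lay 1104 and 2416 bases from the next exon and that of *Snhg20* 1340. Distances were read in 1 transcript model per host, with the most exons. For *Snhg14* this was 1 of 15 models, with 17 exons, and its introns held 9 RNAs at a median of 239 bases. The other models of *Snhg14* were not tried.

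**Figure D4:**
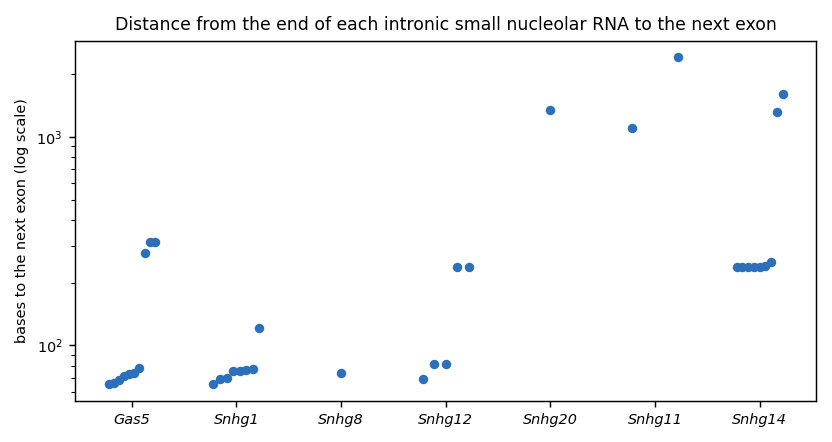
Distance in bases (y axis, log scale) from the end of a small nucleolar RNA to the next exon, by host (x axis). Introns are those of 1 transcript model per host, with the most exons, and each point is 1 RNA. Most RNAs of *Gas5*, *Snhg1*, *Snhg8* and *Snhg12* lie between 65 and 81 bases, and those of *Snhg20* and *Snhg11* lie above 1000.

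How alike the hosts were over the 29 libraries was measured as Pearson's r of log2 CPM, a description over libraries that share tissue and depth. *Snhg11* and *Snhg14* had r = 0.88. Among the 5 genes with their peak in ovary r ran from 0.28 to 0.85 (median 0.61 over 10 pairs), highest for *Gas5* with *Snhg12* (0.85) and with *Snhg8* (0.83). By Spearman's rho *Snhg11* with *Snhg14* had 0.68, and the pairs of *Snhg1* within the 5 had -0.054 with *Snhg8*, 0.046 with *Snhg12*, 0.15 with *Gas5* and 0.16 with *Snhg20*, so the likeness of *Snhg1* to the other 4 rests on Pearson's r. *Snhg1* ran against the neural pair, with -0.35 for *Snhg11* and -0.34 for *Snhg14*. After group means were taken away, so that only the spread between replicates remained, *Snhg11* and *Snhg14* had -0.16, and the highest values were 0.66 for *Gas5* with *Snhg1* and 0.64 for *Snhg1* with *Snhg14*.

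**Figure D5:**
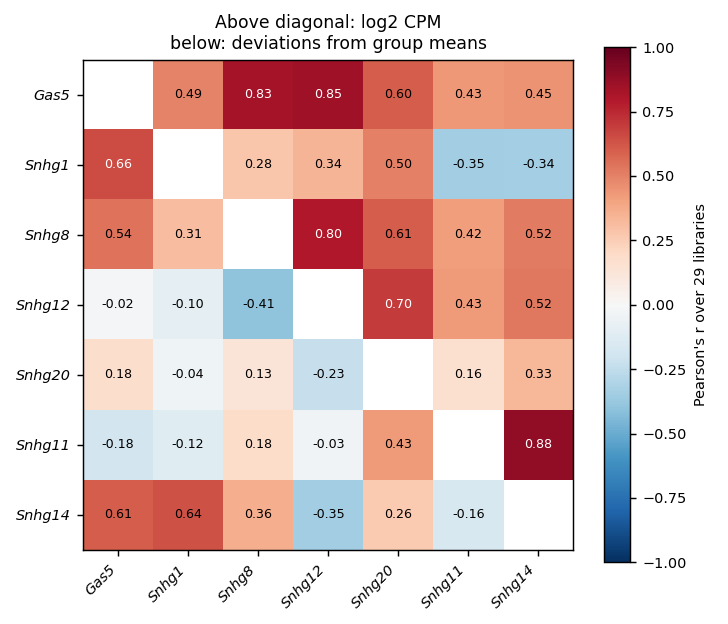
Pearson's r between the 7 host genes over 29 libraries, for log2 CPM above the diagonal and for deviations from group means below it; colour runs from -1 (blue) to 1 (red). The highest value above the diagonal is 0.88 for *Snhg11* with *Snhg14*, and the same pair has -0.16 below it.

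The genes most like each host were sought among the other 29910 tested genes by the same measure. For *Gas5* the closest was *Zfas1* (r = 0.87), itself a noncoding host of small nucleolar RNAs, which had means of 36.7 CPM in ovary, 15.7 in brain and 3.60 in testis. *Snhg8* was most like *Nap1l1*, a histone chaperone (0.93), *Snhg12* most like *Tubb5*, a beta-tubulin (0.93), and *Snhg20* most like *Cc2d2a*, a ciliary transition zone gene (0.89). *Snhg11* was most like *Cspg5*, a neural proteoglycan (0.98), and *Snhg14* most like the long noncoding *C130071C03Rik* (0.99). For *Snhg1* the closest was the pseudogene *Gm7825* (0.93), at 1.79 CPM in ovary and 0 in the other tissues, followed by *Angpt2*, a ligand of vessel growth (0.92), at 106 CPM in ovary and 3.48 to 6.02 elsewhere.

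Genes of the same pathway were described from lists, by how many were called in each direction with TMM factors. In neural tissues against heart and colon, 5 of the 5 tested genes of the *Snhg14* region were higher, with a median log2 difference of 3.20 against 0.11 for all genes, of which 38.2% were higher and 26.3% lower. *Snrpn*, which encodes a neuronal splicing protein, was higher by 3.68 (SE 0.13) and *Ndn*, which encodes necdin, by 3.20 (SE 0.14). Of 10 factors that assemble small nucleolar ribonucleoproteins 9 were higher and 1 was lower (median 0.77). *Nop56* (0.99) and *Snu13* (0.71) of the 4 box C/D core proteins were higher, as were 3 of the 4 H/ACA core proteins, among them *Dkc1* (0.39) and *Gar1* (0.78). Ribosomal proteins moved the other way, with 72 of 84 lower, 1 higher and a median of -0.70, as did the protein-coding hosts, with 18 of 31 lower and 9 higher (median -0.37). Among 11 other genes with an *Snhg* symbol 2 were higher, *Snhg10* (1.41) and *Snhg7os* (1.65), and 2 lower, *Snhg18* (-2.11) and *Snhg3* (-0.36). Of 10 nonsense-mediated decay factors 7 were higher, with *Smg9* at 0.92, and 1 was lower, *Smg1* at -0.44. With RLE size factors the other *Snhg* genes turned to 1 higher and 4 lower (median -0.037), and the other lists kept the sign of their median. With total counts as library sizes the other *Snhg* genes were 4 higher and 1 lower (median 0.33), the decay factors were 8 higher and 0 lower, so that the call of *Smg1* ended, and the median of all genes moved to 0.30.

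In testis against ovary the lists parted from each other. Protein-coding hosts were lower in 27 of 31 and higher in 0 (median -1.51), and ribosomal proteins lower in 71 of 84 and higher in 2 (median -1.38), against a median of 0.15 for all genes, of which 37.8% were higher and 26.5% lower. With total counts as library sizes the median of all genes moved to -0.38. The 2 higher ribosomal proteins were *Rpl39l* and *Rpl10l*, paralogs known from male germ cells. *Nop56* (-1.50, SE 0.17) and *Fbl*, the methyltransferase of box C/D particles (-1.07, SE 0.19), were lower, and so were *Dkc1*, the pseudouridine synthase (-2.08, SE 0.15), and *Nhp2* (-1.29, SE 0.23), while *Nop10* was higher (0.64, SE 0.23) with TMM factors and not called with total counts. The decay factors were higher in 8 of 10 and lower in 0 (median 1.04), led by *Smg9* (3.12, SE 0.18) and *Upf3a* (2.89, SE 0.19), and with total counts in 5 and 1 (median 0.39). Of the assembly factors 5 were higher, led by *Pih1d1* (2.68) and *Ruvbl2* (2.07), and 1 was lower, *Rpap3* (-0.65), but with total counts 3 were higher and 4 lower (median -0.099). Other *Snhg* genes were lower in 5 of 11 and higher in 3 (median -0.56), and in the *Snhg14* region *Ndn* was lower (-1.19) and *Snrpn* higher (0.63), while with total counts 2 were lower and none higher.

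Between brain and cerebellum, 32 of 84 ribosomal proteins and 13 of 31 protein-coding hosts were higher in brain and none of either lower (medians 0.40 and 0.38, all genes 0), for example *Rps2* (0.98, SE 0.18). Of all genes 15.3% were higher and 10.8% lower in brain. With total counts as library sizes 18 ribosomal proteins were higher and 1 lower, and 9 hosts higher and 0 lower. Assembly factors were higher in 4 of 10, other *Snhg* genes in 1 of 11 (*Snhg6*, 0.55), and each of the core protein lists in 1 of 4, *Snu13* (0.42) and *Nhp2* (0.81), with none lower in these lists. With total counts no assembly factor was called, and of the other *Snhg* genes 0 were higher and 1 was lower. Decay factors were higher in 1 of 10 and lower in 1, and in 0 and 2 with total counts, and in the *Snhg14* region *Magel2* (1.69) and *Snrpn* (0.50) were higher in brain and *Mkrn3* (-1.16) lower. In colon against heart, 54 of 84 ribosomal proteins, 20 of 31 protein-coding hosts, 9 of 10 assembly factors and all 4 H/ACA core proteins were lower, with medians of -0.53, -0.53, -0.95 and -1.0, where 28.9% of all genes were higher and 25% lower. With total counts as library sizes the median of all genes moved from 0.092 to 0.62, and those of the first 2 lists moved with it, to 0.067 with 16 ribosomal proteins higher and 8 lower and to 0.065 with 9 protein-coding hosts higher and 5 lower. Both lists lay below the median of all genes with either scaling, while 5 assembly factors and 2 H/ACA core proteins were still lower. Other *Snhg* genes were higher in 6 of 11 and lower in 1 (median 0.60), and *Snhg17* was higher by 1.04. Of the box C/D core proteins 3 were lower and 1 was higher, of the decay factors 3 were higher and 3 lower, and of the *Snhg14* region 1 was lower, *Snrpn* (-1.13). With total counts 7 decay factors were higher and 0 lower (median 0.57), and 1 gene of the region was higher and 1 lower. In the gonads against somatic tissues, 47 of 84 ribosomal proteins, 13 of 31 protein-coding hosts, 8 of 10 assembly factors, 7 of 11 other *Snhg* genes and 6 of 10 decay factors were higher, and 1, 3, 1, 1 and 0 lower. Of all genes 31.6% were higher and 23% lower. With total counts as library sizes 71, 24, 9, 7 and 9 of these lists were higher and 1, 2, 0, 0 and 0 lower, while the median of all genes moved from 0.18 to 0.32. Core proteins were higher in 2 of 4 for box C/D and 3 of 4 for H/ACA, where *Dkc1* was lower (-0.30) with TMM factors and not with total counts, and in the *Snhg14* region 3 of 5 were lower, led by *Snrpn* (-3.79), and *Mkrn3* was higher (1.11, adjusted P = 0.00629). No gene of any list was called between the sexes.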

How the data were processed

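The deposited count table holds, per gene and library, whole-number counts of uniquely mapped reads that the authors made from ribosomal RNA-depleted, dUTP-stranded libraries. Reads were aligned to mm10 with HISAT2 2.0.5 and counted with featureCounts 1.6.3, after quality reports with FastQC 0.11.8 and MultiQC 0.9. The authors merged Iso-seq transcripts with ENSEMBL genes into the gene models used for counting, and how strand and reads on several genes were treated is not given in the sources used here. Libraries held 11742417 to 36194255 counts, and intervals and floors cover counting error only. All 29 count columns were used.

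Symbols were tied to counted genes through the deposited map of ENSEMBL genes to Iso-seq loci. The 7 members, the gene lists and the tests were chosen with earlier results of these data known. Of the 42145 ENSEMBL genes also found in GENCODE M21, 99.6% had the same coordinates.

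The main test was the quasi-likelihood test of edgeR 4.0.16 (R 4.3.3) with TMM factors on 10 groups, each a tissue of one sex, after the default filter by group left 29911 genes. The Benjamini-Hochberg adjustment ran over all of these, an adjusted P below 0.05 made a call, and the mean of both sexes stood for a tissue. SE is the log2 difference divided by the square root of F. FPKM was computed from counts, library totals and union exon length. Correlations used log2 CPM with a prior count of 2. The fit was tested on simulated data. Other choices tried were RLE size factors, total counts as library sizes, no filter and a stricter filter of at least 10 counts, a replicate block, sexes pooled, each library left out, another gene length and DESeq2 1.42.0. Sequences came from GENCODE transcripts and RefSeq start sites, both on GRCm38.p6, and were read with Python 3.11.15, pandas 2.3.3 and numpy 2.4.6.

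Genes named beside the 7 were the hosted RNAs with the highest counts (where all of a host's were at 0, the first by position with a Snord or Snora symbol), the genes most like each member, those that overlap it or start within 1000 bases on the other strand, and, from each list, the 2 or fewer genes per direction that had the lowest adjusted P. The lists were the protein-coding hosts, other genes with an Snhg symbol, box C/D and H/ACA core proteins, assembly factors, nonsense-mediated decay factors, cytosolic ribosomal proteins and the Snhg14 region.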

Additional observations from a re-analysis of the deposited data

Results flagged for a closer look

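In 28 groups of 5 or 6 libraries (7 genes in 4 tissues), 5 had a library whose gap to its nearest neighbour was large beside the range of the group by Dixon's test, which marks about 1 group in 20 by chance. Female heart replicate 3 was the highest heart library for all 7 genes, at 1.79 to 2.31 times the mean of the other 4 for 6 of them and 18.7 times for *Snhg11* in FPKM by total counts, and it stood apart in 3 of these groups, at 13.3 FPKM for *Snhg8*, 0.777 FPKM for *Snhg11* and 1.19 FPKM for *Snhg14*. The same library held 1081 CPM of adipocyte markers, the highest astrocyte and oligodendrocyte marker sums among heart libraries (114 and 59.8 CPM) and fewer reads of cardiomyocyte markers than the other heart libraries, and the part of these in the 3 levels was not tested. Without it the heart means were 6.55 ± 0.502 FPKM for *Snhg8*, 0.0414 ± 0.0632 FPKM for *Snhg11* and 0.641 ± 0.0262 FPKM for *Snhg14* (SD, n = 4). With TMM factors, which were 1.12 in this library and 0.604 to 0.711 in the other 4, it was the highest for 4 of 7 genes, at 1.06 to 1.38 times the mean of the others for 6 genes and 10.5 times for *Snhg11*, and it passed Dixon's test for 0 of 7. In cerebellum, female replicate 3 stood out with 15.0 FPKM of *Snhg8*, and in brain, male replicate 1 with 14.8 FPKM of *Snhg14*.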

How the results depend on the processing

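Of 1498 values of single genes in the 6 main comparisons under the alternatives, 1441 kept their direction and their side of the threshold, 19 lost a call, 14 gained one and 24 turned round. Calls between single pairs of tissues that were lost or gained are not in this tally. With total counts as library sizes the log2 difference turned to 0.067 for *Snhg8*, 0.42 for *Snhg12* and 0.52 for *Snhg14* in colon against heart, 0.044 for *Snhg1* in neural tissues, -0.087 for *Snhg14* in brain against cerebellum, 0.10 for *Snhg12* in gonads and -0.021 for *Snhg20* between the sexes. *Snhg14* in colon against heart also turned to 0.095 with RLE size factors, 0.041 without a filter on low counts and 0.096 with DESeq2. With 1 library left out it ran from -0.17 to 0.070, *Snhg14* in brain against cerebellum from -0.018 to 0.21 and *Snhg20* between the sexes from -0.061 to 0.093. Of the 24, *Snhg8* in colon against heart was called before it turned and *Snhg12* there after it, and the others were called neither before nor after. Without a filter on low counts, 2 genes in place of 4 were called in gonads against somatic tissues, with adjusted P = 0.0919 for *Gas5* and 0.179 for *Snhg8*, and 73 hosted RNAs in place of 9 were called in neural tissues when each with any count was tested, numbers that their selection by neural reads fixes and that support nothing. With 1 library left out, the number of the 7 genes called ran from 6 to 6 in neural tissues, 3 to 3 in brain against cerebellum, 2 to 3 in colon against heart, 5 to 7 in testis against ovary, 2 to 4 in gonads and 0 to 0 between the sexes, and from 70 to 75 over all pairs of tissues. In all of these runs 5 genes had their highest mean in ovary.

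Replicate numbers left no visible pairing of the libraries: over 56 pairs of the same number and sex, the correlation of deviations ran from -0.259 to 0.0931, and 12 of 29 libraries were closer to their own number than to others. Deviations within such small groups depend on each other, so these values cannot show whether libraries of the same number share an animal. With the replicate block, 5 genes were called in testis against ovary, where *Snhg14* had an adjusted P of 0.0611, and 72 in place of 74 over all pairs of tissues, while the counts in the other comparisons with a block did not move. Depth limits *Snhg11* in heart, where 28 reads were counted in females and 0 in males, and the small RNAs, most of which had too few reads to be tested.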

Other observations

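Genes that overlap a host or start beside it on the other strand were looked at in the same comparisons. *Slc3a2*, an amino acid transporter subunit whose start lies 112 bases from that of *Snhg1*, was higher in neural tissues than in heart and colon (log2 difference 1.57, adjusted P = 1.1e-13) and in testis than in ovary (0.70, adjusted P = 0.0015), while *Snhg1* was not called in the first comparison and was lower in testis in the second. Both were higher in gonads than in somatic tissues, *Slc3a2* by 1.03 (adjusted P = 6.9e-10) and *Snhg1* by 0.86 (adjusted P = 2.9e-07). *Zbtb37*, a zinc finger gene whose start lies 339 bases from that of *Gas5*, was not called in the first comparison (0.17) and was higher in gonads than in somatic tissues (0.80, adjusted P = 4.9e-07). *Ube3a*, a ubiquitin ligase on the strand opposite to *Snhg14*, was higher in neural tissues by 0.88 (adjusted P = 3.5e-05). It shares exon bases with *Snhg14*, and since the sources used here do not give how strand was counted, reads from the 2 genes may not be separate. *Gm38393*, which shares exon bases with *Snhg14* on the same strand, was higher in neural tissues by 3.95. The other 3 genes that overlap *Snhg14* were also called higher there. *A230103L15Rik* had means of 3.86 CPM in brain and 6.24 in cerebellum against 0.107 in heart and 0.0831 in colon, *Gm44829* 3.0 and 3.41 against 0.333 and 0.628, and *Gm44831* 1.53 and 2.34 with no read in heart or colon.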
